A study of Mus musculus with 6 samples.

Results

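Fetal thymic stroma that lacks Jmjd6 was compared with wild-type (WT) stroma after stimulation with RANKL, the ligand of the receptor RANK, with 2 RNA-seq libraries of each genotype. The genes compared are all entries of the expression table with a mean of at least 0.1 FPKM (fragments per kilobase of transcript, scaled to the mapped fragments of the library) over these 4 libraries, 16027 of 22513 entries. The series holds 6 libraries in all, since 1 library of each genotype was also made without RANKL. All cultures were thymic lobes of C57BL/6 background embryos, either WT or Jmjd6-/- in every cell, and all were depleted of haematopoietic cells by 2′-deoxyguanosine (2-DG) over 4 days. The submitters mention a technical duplicate and also count 2 samples in each RANKL group. Nothing states that these came from separate cultures, so the p-values measure only the spread between these libraries, which may be technical in part. With 2 libraries against 2, an exact two-sided permutation test of a single gene cannot go below 0.333, and all calls below therefore come from a fit over all genes (limma).

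The thymic medulla displays the body's own antigens to developing T cells. Signals through RANK bring medullary thymic epithelial cells (mTECs) to maturity and switch on Aire, a nuclear regulator that lets these cells transcribe genes otherwise confined to single peripheral tissues. Mature mTECs also hold subsets that resemble keratinocytes, microfold, tuft and neuroendocrine cells, and the thymic epithelium makes interferon and responds to it in the absence of infection. Jmjd6 is a nuclear oxygenase that hydroxylates lysines of splicing regulatory proteins. The study asked how its loss alters the transcriptome of RANKL-stimulated stroma, and the gene programmes described here go beyond the tissue antigens on which the study centred.

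Of the 16027 genes, 347 fell and 91 rose in Jmjd6-/- stroma at an adjusted p under 0.05 (limma on log2(FPKM + 0.1), Benjamini-Hochberg), which is 2.17% and 0.568% of the genes tested. Adjusted p-values of the called genes ran from 0.0129 to 0.0499, so all calls lie fairly near the threshold. The median log2 difference over all genes was 0.01. The called lower genes had a median log2 difference of -1.81 and the called higher genes one of 1.87. Both values of Jmjd6-/- were below both values of WT for 26.5% of all genes and above both for 24.3%, against which each count of non-overlapping groups has to be read. At an unadjusted p under 0.05, 12.6% of all genes were lower and 6.40% higher, the background for the unadjusted counts of single gene lists. Where 1 pair of values is set against another, the first pair is WT replicates 1 and 2 and the second Jmjd6-/- replicates 1 and 2.

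**Figure D1:**
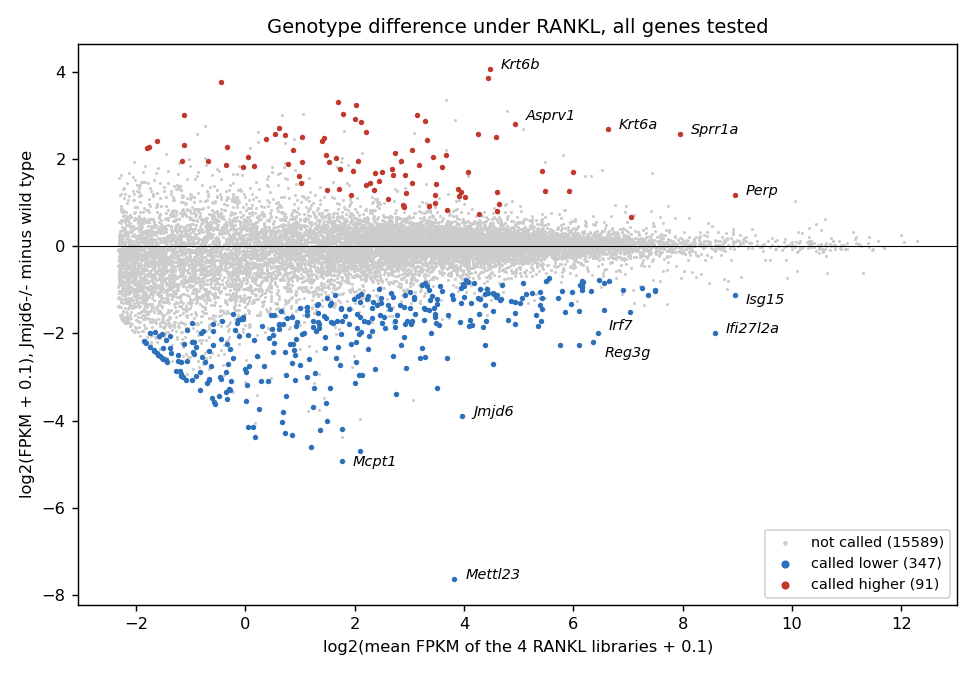
Each point is 1 gene; the horizontal axis gives its log2 mean FPKM over the 4 RANKL libraries and the vertical axis its log2 difference, Jmjd6-/- minus WT. The 347 called lower genes (blue) include low-level and high-level genes, and Mettl23 at -7.64 lies farthest from 0.

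The replicates of the 2 genotypes differed to unequal extents. Among the 12659 genes that averaged 1 FPKM or more, the median absolute log2 difference was 0.28 between the WT replicates and 0.08 between the Jmjd6-/- replicates. The WT difference moved with base composition: WT replicate 2 minus replicate 1 had a median of -0.37 in the tenth of genes with the lowest GC content and 0.26 in the highest, against -0.01 and 0.0074 for Jmjd6-/-. No gene passed without WT replicate 2, with 3071 lower and 2673 higher at an unadjusted p under 0.05 in limma, while 1490 and 1872 passed without WT replicate 1. Without Jmjd6-/- replicate 1 the counts were 173 lower and 33 higher, and without Jmjd6-/- replicate 2 they were 99 and 21. Y-linked expression also differed between libraries: Eif2s3y stood at 19.1 and 21.7 FPKM in WT and 36.3 and 7.71 FPKM in Jmjd6-/- under RANKL, and without RANKL at 31.6 FPKM in WT and 0.0651 FPKM in Jmjd6-/-. The 2 Jmjd6-/- RANKL libraries thus lay well apart in this gene, although most genes differed little between them.

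Jmjd6 itself was measured at 25.9 and 32.5 FPKM in the WT and 1.96 and 1.78 FPKM in the Jmjd6-/- RANKL libraries, a log2 difference of -3.89 (SE 0.17, adjusted p = 0.0129, limma). It was likewise low without RANKL, at 1.32 FPKM against 26.3 FPKM in WT, so the targeted gene followed the label in all 6 libraries. The gene occupies chr11:116837432-116843449 in the mm10 build. The methyltransferase-like gene Mettl23, which begins 66 bases beyond it at chr11:116843515-116849740, was at 24.5 and 31.6 FPKM in WT and 0.0949 and 0 FPKM in Jmjd6-/-. Its difference of -7.64 (SE 0.37, adjusted p = 0.0129, limma) rests on Jmjd6-/- values near 0, and the unstimulated pair gave 28.7 FPKM in WT and 0 FPKM in Jmjd6-/-. Jmjd6-/- stroma as sequenced here was thus low in transcripts of both neighbours, and effects of the one and of the other cannot be told apart. Within 1 Mb of Jmjd6, 4 of 49 genes were called, all lower: these 2 genes, the galactokinase Galk1 (15.3 and 17.1 against 6.61 and 6.29 FPKM) and the ciliogenesis factor Foxj1 (5.61 and 3.99 against 1.60 and 1.80 FPKM). Widening the window to 5 Mb gave 6 of 189, or 3.17%. Both windows count Jmjd6 and Mettl23 themselves. Called lower were 3.55% of the genes on chromosome 11 and 2.17% of all genes, and the share within 5 Mb lay near these.

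The RANKL response of the medulla was present in both genotypes. Aire was at 78.0 and 79.7 FPKM in WT and 75.1 and 67.1 FPKM in Jmjd6-/- after RANKL, and at 0.142 against 0.473 FPKM without it, and its genotype difference of -0.15 (SE 0.11) did not pass (adjusted p = 0.555, limma). Cd80, a costimulatory ligand of mature mTECs, was at 11.6 and 9.96 FPKM in WT and 15.3 and 14.3 FPKM in Jmjd6-/-, and Foxn1, the master regulator of thymic epithelium, at 80.8 and 103 against 117 and 101 FPKM. None of 29 genes of RANK and NF-kB signalling was called (median log2 difference 0.01), nor any of 20 cortical epithelial genes (median 0.12) by limma. At an unadjusted p under 0.05, 0 of the former were lower and 1 higher, and of the latter 0 and 3, against 12.6% lower and 6.40% higher of all genes. Of 19 mTEC maturation genes 2 were called, both lower. The first was Ccl19, a chemokine that draws cells bearing CCR7, at 32.2 and 47.3 FPKM in WT and 7.33 and 4.73 FPKM in Jmjd6-/- (-2.71, SE 0.28, adjusted p = 0.0238). The other was the histidine decarboxylase Hdc, at 17.0 and 16.2 against 3.35 and 2.32 FPKM (-2.53, SE 0.21, adjusted p = 0.0215). Of 14 microfold genes Gp2 and Msln fell, of 30 neuroendocrine genes 2 fell, among them Iapp, and of 23 tuft cell genes none was called by limma. At an unadjusted p under 0.05 (limma), 6 microfold genes were lower and 1 higher, 13 and 1 neuroendocrine genes, and 1 and 4 tuft cell genes. The shares over all genes were 12.6% lower and 6.40% higher. The neuroendocrine median was -0.66.

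The cell types that the label implies were there. Besides Foxn1, the cortical protease Prss16 was at 2506 and 2925 FPKM in WT and 2671 and 2713 FPKM in Jmjd6-/-, and the epithelial adhesion molecule Epcam at 209 and 202 against 187 and 187 FPKM. The T cell gene Cd3e was listed at 0 and 0 against 0.0345 and 0 FPKM, while the pan-leukocyte gene Ptprc was at 3.41 and 3.53 against 2.89 and 3.56 FPKM, so some haematopoietic RNA remained. Macrophage genes summed to between 813 and 1070.2 FPKM in the 4 libraries, with none of 21 called by limma and 3 lower and 1 higher at an unadjusted p under 0.05, against 12.6% and 6.40% of all genes. In whole-culture RNA, fewer cells of a type and less RNA per cell cannot be told apart, which holds for every programme described here.

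Of all gene lists examined, that of interferon-stimulated genes held the most genes that fell. Type I and type III interferons signal through a complex of transcription factors that includes IRF9 and binds a short element repeated in the promoters of their targets. Of 56 interferon-stimulated genes, 29 were called lower (51.8%, against 2.17% of all genes) and none higher, and the median log2 difference was -1.12. All 56 had both Jmjd6-/- libraries below both WT libraries, against 26.5% of all genes. The calls fell to 6 without Jmjd6-/- replicate 2 and to 0 without WT replicate 2, while the median stayed between -1.23 and -0.94 in all alternatives run. Among the called members were the RNA-sensing oligoadenylate synthetases, the ubiquitin-like modifier Isg15 with its protease Usp18, the guanylate-binding proteins and the transcription factor Irf7, which amplifies interferon production.

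Promoter sequence shows the element that many of these genes share. The core GAAANNGAA of the interferon-stimulated response element, searched on both strands of the 300 bases from 250 before to 50 after each RefSeq transcription start (GRCm38.p6), was found in 24 of the 39 members with a promoter in the table (61.5%). It was found in 10 of 19 called members and in 8.62% of the 11768 genes tested that have one. Among all called lower genes the share was 15.1%. A stretch of each of 3 promoters is given because it holds overlapping or repeated copies of the element, with every match in capitals, read 5′ to 3′ on the strand of the gene. The first is that of Oas3, the called member with the largest difference among those that hold a match, at chr5:120777690-120777764, the second that of Oas1a at chr5:120907501-120907575 and the third that of Isg15 at chr4:156200846-156200926.
Oas3: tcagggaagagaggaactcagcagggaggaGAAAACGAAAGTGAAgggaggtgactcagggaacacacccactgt
Oas1a: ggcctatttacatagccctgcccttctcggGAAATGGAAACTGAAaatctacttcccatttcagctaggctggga
Isg15: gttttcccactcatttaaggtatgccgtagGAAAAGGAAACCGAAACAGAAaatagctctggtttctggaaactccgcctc
The first match began 75 bases before the start of Oas3, 20 before that of Oas1a and 78 before that of Isg15, where 3 overlapping matches were found. A match describes the sequence and was not tested as a site of binding.

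Oas3, a synthetase of the activator of RNase L, was at 11.9 and 14.4 FPKM in WT and 2.53 and 1.29 FPKM in Jmjd6-/-, a difference of -2.79 (SE 0.33, adjusted p = 0.0267, limma). Irf7 was at 117 and 162 FPKM in WT and 40.1 and 30.3 FPKM in Jmjd6-/-, 3.96-fold lower by the group means (-1.98, SE 0.21, adjusted p = 0.0238). The most abundant member, Isg15, stood at 575 and 790.2 against 320.1 and 299 FPKM, 2.20-fold lower (-1.12, SE 0.19, adjusted p = 0.0483). For all 3 genes the Jmjd6-/- values were well below the WT values, with a wide gap and no overlap. Ifi27l2a, a small interferon-induced membrane protein, was likewise lower, 461 and 775 against 149.6 and 149.9 FPKM. Usp18 was at 75.2 and 95.7 in WT and 43.4 and 38.4 FPKM in Jmjd6-/-, and the immunity-related GTPase Igtp at 58.1 and 66.3 against 27.7 and 18.6 FPKM. Irf9, of the signalling complex itself, was at 79.8 and 80.3 against 63.7 and 59.6 FPKM and was not called (adjusted p = 0.135, limma). The Oas1, Gbp, Slfn and Ifi families consist of similar copies, between which the deposited values may split reads uncertainly.

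**Figure D2:**
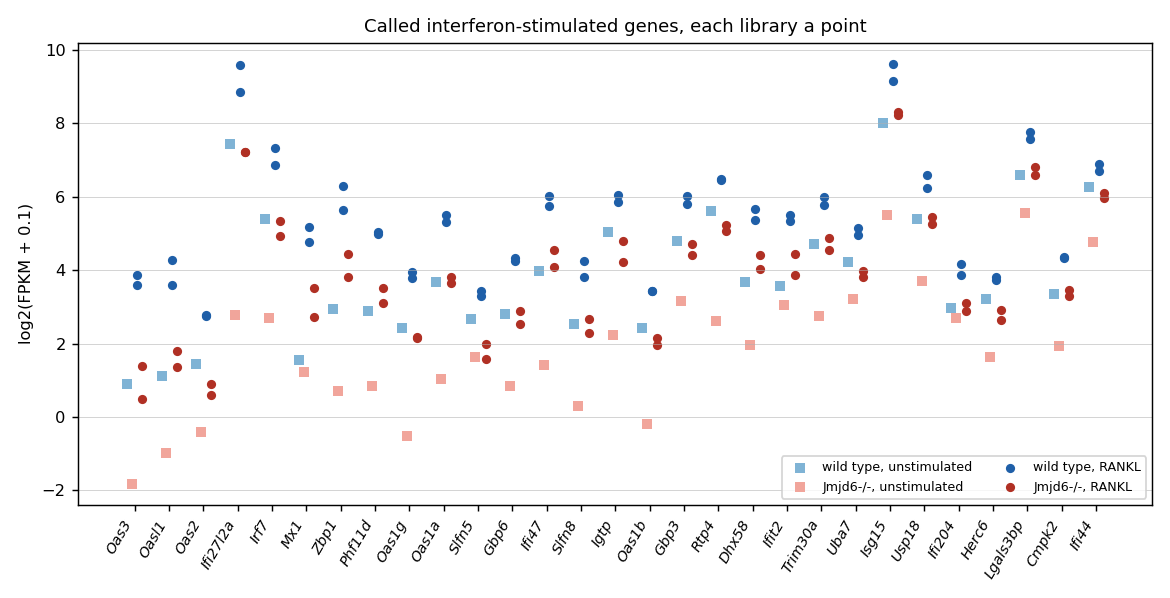
Each column is 1 of the 29 called interferon-stimulated genes and each point 1 library, as log2(FPKM + 0.1); squares are unstimulated and circles RANKL-stimulated cultures. The 2 Jmjd6-/- circles lie below the 2 WT circles in every column, and the unstimulated Jmjd6-/- square below the WT square.

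The unstimulated pair, which shares no library with the contrast under RANKL, gave the same direction. In it 55 of 56 members were lower in Jmjd6-/- (median log2 difference -1.52, 1 library each, no test). Irf7 was at 41.9 FPKM in WT and 6.41 FPKM in Jmjd6-/- there, Isg15 at 259.7 against 45.5 FPKM, and Oas3 at 1.77 against 0.182 FPKM. Summed over the list, the unstimulated cultures held 2283 FPKM in WT and 858 FPKM in Jmjd6-/-, and the RANKL cultures 4447 and 5361 against 2509 and 2173 FPKM. RANKL libraries were thus higher than the unstimulated library in both genotypes, and Jmjd6-/- stroma was lower in both conditions. Interferon genes themselves were near the limit of detection. Ifnl2, a type III interferon, was at 0.475 and 0.512 FPKM in WT and listed at 0 in both Jmjd6-/- libraries. It was called lower, but it passed the filter at 0.1 FPKM through WT alone. The filter thus set its direction, and the call is no measure of interferon expression. Ifnb1 (0.159 and 0.0919 FPKM in WT) and Ifnl3 (0.0927 and 0 FPKM in WT) were listed at 0 in both Jmjd6-/- libraries and were too low to be tested.

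Class I presentation genes were lower together, although few genes of either class of antigen presentation were called. Class I molecules, which interferon induces, are loaded with peptides from inside the cell, and class II molecules with peptides from endosomes. All 20 class I presentation genes had a negative difference (median -0.52), with 2 called: H2-Q7 at 99.99 and 127 FPKM in WT and 27.8 and 19.5 FPKM in Jmjd6-/-, and an entry that joins H2-T22 with H2-T9 at 96.4 and 118 against 55.9 and 49.3 FPKM. The 15 class II genes had a median of -0.08, between -0.35 and 0.06 over the alternatives, and 13 of them had a negative difference. At an unadjusted p under 0.05, 4 of the class II genes were lower and 0 higher (limma). Whether the classes differed was not tested. H2-DMb2, a chaperone subunit for class II loading, was the class II member called, at 41.4 and 44.5 FPKM in WT and 26.2 and 22.2 FPKM in Jmjd6-/-. Cd74, the invariant chain, was at 2218 and 3652 against 2749 and 2629 FPKM.

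Chemokine and complement genes fell beside them. Of 32 chemokines, 9 were called lower and 1 higher (median -0.68). These are 28.1% and 3.13%, against 2.17% and 0.568% of all genes. Cxcl13, which draws B cells, was at 41.7 and 27.3 FPKM in WT and 6.58 and 7.36 FPKM in Jmjd6-/- (-2.26, SE 0.22, adjusted p = 0.0238, limma), and it differed likewise without RANKL, 26.5 against 4.75 FPKM. The monocyte-attracting Ccl7, Ccl8 and Ccl12 also fell, Ccl8 with 16.0 and 28.0 FPKM in WT and 3.85 and 3.21 FPKM in Jmjd6-/-. Cxcl9, a classic target of interferon gamma, was at 8.58 and 7.70 against 3.21 and 2.17 FPKM. Against this direction the neutrophil attractant Cxcl3 rose, from 3.32 and 4.31 FPKM in WT to 13.4 and 14.8 FPKM in Jmjd6-/- (1.87, SE 0.18, adjusted p = 0.0238). The homing chemokines of thymus seeding cells did not pass: Ccl25 was at 1748 and 2230.2 against 2463 and 2469 FPKM and Cxcl12 at 709 and 674 against 689 and 672 FPKM. Among 15 complement genes 6 fell (40.0%, against 2.17% of all genes) and none rose (median -1.71). They included the central component C3 (7.98 and 5.65 against 2.01 and 1.95 FPKM), factor B (Cfb, 3.34 and 2.81 against 0.409 and 0.521 FPKM) and the proteases C1ra and C1s of the first component. Leaving out Jmjd6-/- replicate 1 or 2 left 5 or 5 lower chemokine calls and 3 or 2 complement calls.

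Many genes of the cornified envelope moved the other way. Terminally differentiating keratinocytes crosslink small proline-rich, late-envelope and involucrin proteins beneath their membrane, and thymic medullary epithelium forms comparable keratinised cells and Hassall-like bodies after the Aire stage. Of 60 genes of this list, 17 were called higher (28.3%, against 0.568% of all genes) and none lower, with a median log2 difference of 1.68. In 46 of the 60 both Jmjd6-/- libraries lay above both WT libraries, against 24.3% of all genes. In 4 both lay below, against 26.5%, and 8 had a negative difference. At an unadjusted p under 0.05 (limma), 42 were higher and 2 lower, against 6.40% and 12.6% of all genes. Among the negative ones, Serpinb12 was at 34.5 and 19.1 FPKM in WT and 14.1 and 14.6 FPKM in Jmjd6-/-. Dsg1a was at 9.29 and 6.21 against 5.62 and 4.70 FPKM, and neither was called. The median ranged from 0.63 to 2.40 over the alternatives run, and the calls fell to 9 without Jmjd6-/- replicate 2 and to 0 without WT replicate 2. Summed FPKM of the list were 227 and 385 in WT and 1024 and 1135 in Jmjd6-/-. Of the 67 genes written into this list, 60 passed the filter at 0.1 FPKM. Some passed it through Jmjd6-/- alone, such as Lce3e and Lce1l, listed at 0 in both WT libraries. The filter set the direction of such genes, so the median and counts are no measure of the whole list.

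Sprr1a, a small proline-rich envelope precursor, was at 51.4 and 96.8 FPKM in WT and 384 and 460.4 FPKM in Jmjd6-/-, 5.70-fold higher by the group means (2.58, SE 0.31, adjusted p = 0.0268, limma). Asprv1, a protease that processes filaggrin, was at 7.03 and 8.13 against 49.9 and 57.1 FPKM, 7.06-fold higher (2.80, SE 0.14, adjusted p = 0.0129). Both WT libraries were low and both Jmjd6-/- libraries high for each of them, and the WT replicates of Sprr1a differed more than the Jmjd6-/- ones did relative to their mean. Spink5, an inhibitor of epidermal kallikreins, was at 4.28 and 5.25 FPKM in WT and 20.7 and 20.5 FPKM in Jmjd6-/-, and involucrin (Ivl) at 0.393 and 0.654 against 3.22 and 3.56 FPKM. Lce3e, a late-envelope gene, was listed at 0 in both WT libraries and at 1.21 and 1.34 FPKM in Jmjd6-/- (adjusted p = 0.0215). Loricrin (Lor), the main envelope protein of mature epidermis, was not called, at 0.58 and 1.12 against 1.55 and 1.71 FPKM, nor was the crosslinking enzyme Tgm1, at 1.12 and 1.97 against 4.38 and 4.27 FPKM (adjusted p = 0.0683). The Sprr2 genes are near-identical copies, so the division of reads among them is uncertain.

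**Figure D3:**
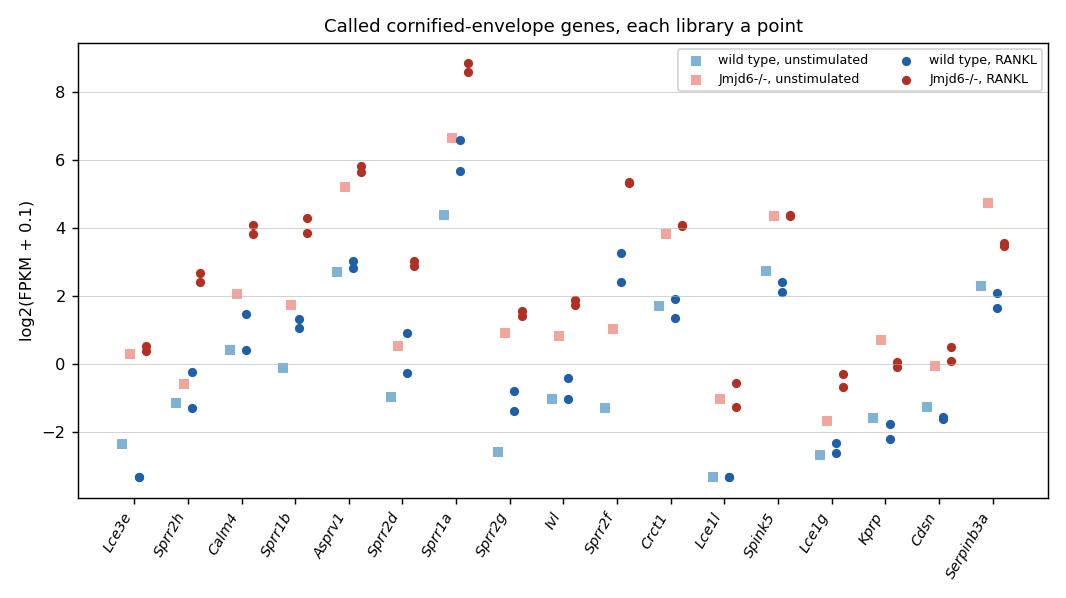
Each column is 1 of the 17 called cornified-envelope genes and each point 1 library, as log2(FPKM + 0.1); squares are unstimulated and circles RANKL-stimulated cultures. Both Jmjd6-/- circles lie above both WT circles in every column, and the unstimulated Jmjd6-/- square lies above the WT square.

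Many of these genes are neighbours. The epidermal differentiation complex, from chr3:92080271-93449077 as bounded by the listed genes there, held 44 genes tested. Of these 12 were called higher, against 0.568% of all genes, and 0 lower. In 35 both Jmjd6-/- libraries lay above both WT libraries, against 24.3% of all genes. The 12 are called members of the list already counted above, so the counts describe position and are no separate result. The median log2 difference over this span was 1.88. The AP-1 element TGANTCA, an element known from envelope gene promoters and added to the search after the values were seen, stood in 16 of 52 promoters of the list (30.8%) and in 6 of 13 of its called members, against 7.0% of all genes tested with a promoter. It was also found in 9 of 39 interferon-stimulated promoters (23.1%) and 4 of 24 trefoil, Reg and mucin promoters (16.7%), lists whose called genes were lower. Stretches of 3 such promoters from RefSeq (GRCm38.p6) are given with each match in capitals, those of Sprr1a at chr3:92485961-92486057, Sprr2h at chr3:92385457-92385523 and Ivl at chr3:92573815-92573881, because these genes differed strongly and lie within the complex.
Sprr1a: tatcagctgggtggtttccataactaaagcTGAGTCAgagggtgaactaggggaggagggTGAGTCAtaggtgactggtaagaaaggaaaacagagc
Sprr2h: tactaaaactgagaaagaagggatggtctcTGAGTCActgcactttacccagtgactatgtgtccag
Ivl: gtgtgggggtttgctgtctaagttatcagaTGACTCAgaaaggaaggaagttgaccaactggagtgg
The first match began 146 bases before the start of Sprr1a, 198 before that of Sprr2h and 116 before that of Ivl. The E-box CACGTG stood in 1 of the list's 52 promoters and in 10.9% of all.

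Keratins and desmosomal genes of stratified epithelium accompanied them in part. The gene with the largest increase was Krt6b, a keratin of activated keratinocytes, at 1.28 and 4.37 FPKM in WT and 39.8 and 43.0 FPKM in Jmjd6-/- (4.06, SE 0.53, adjusted p = 0.0301, limma). Its neighbour Krt6a was at 18.6 and 36.5 against 162 and 179.9 FPKM (2.71, SE 0.31, adjusted p = 0.0257). Relative to their level, the WT replicates of both genes lay farther apart than the Jmjd6-/- replicates did, and all WT values lay far below the Jmjd6-/- ones. Among 36 keratins with a plain numeric symbol, which leaves out the Krt6 pair, 2 rose (Krt80 and Krt72) and 2 fell (Krt20 and an entry that joins Krt81, Krt83 and Krt85 with another transcript). Each count is 5.56% of this list, against 0.568% higher and 2.17% lower of all genes. The partner of Krt6 in activated keratinocytes, Krt16, was at 4.68 and 16.1 FPKM in WT and 51.5 and 62.3 FPKM in Jmjd6-/- (adjusted p = 0.0721), and the basal keratin Krt5 at 1006 and 1471 against 1887 and 1879 FPKM, neither of them called. The simple epithelial keratin Krt8 was at 1817 and 2482 against 2396 and 2408 FPKM and was not called either. Of 35 basal epidermal and desmosomal genes, 3 rose (8.57%, against 0.568% of all genes). They were the desmosomal proteins Perp (291 and 313 to 682 and 691 FPKM) and Pkp1 (28.7 and 43.2 to 83.8 and 86.5 FPKM), and Lypd3 (2.82 and 5.79 to 17.5 and 16.6 FPKM). Without Jmjd6-/- replicate 1 the basal epidermal list had 0 calls and without replicate 2 0. Other genes of the 15 largest increases were the antimicrobial peptide Defb4, the serpin Serpinb2, the nuclease Trex2, the serine protease Tmprss11bnl, the platelet chemokine Ppbp, Tprg, Gm94 and 2300002M23Rik, and Serpinb2 reached 32.9 and 32.1 FPKM in Jmjd6-/- against 4.28 and 6.66 FPKM in WT. The tight junction gene Cldn1 rose from 2.71 and 2.90 to 9.77 and 10.1 FPKM. Of 9 Skint genes, which shape epidermal T cell progenitors, 2 were called higher (22.2%, against 0.568% of all genes). Skint3 was at 2.17 and 2.56 in WT against 11 and 10.5 FPKM in Jmjd6-/- and Skint8 at 12.7 and 16.2 against 36.9 and 31.2 FPKM.

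The unstimulated pair was lower or higher alongside for most called genes. Of all 91 called higher genes, 88 (96.7%) were also higher in unstimulated Jmjd6-/- stroma, against 49.1% of all genes. Without RANKL, Sprr1a was at 20.8 FPKM in WT and 99.5 FPKM in Jmjd6-/-, and Krt6b at 2.14 against 16.4 FPKM. Of the 347 called lower genes, 272 (78.4%) were lower there as well, 44 higher and 31 equal, against 49.1% lower among all genes. A test of whether the genotype difference itself changed with RANKL, with 1 unstimulated library a genotype and added after the data were seen, called 0 genes (673 at an unadjusted p under 0.05, limma), so no gene was shown to differ by genotype with RANKL alone. The unstimulated WT culture expressed Y-linked genes and the Jmjd6-/- one hardly did, which cannot be told apart from genotype in that pair.

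**Figure D4:**
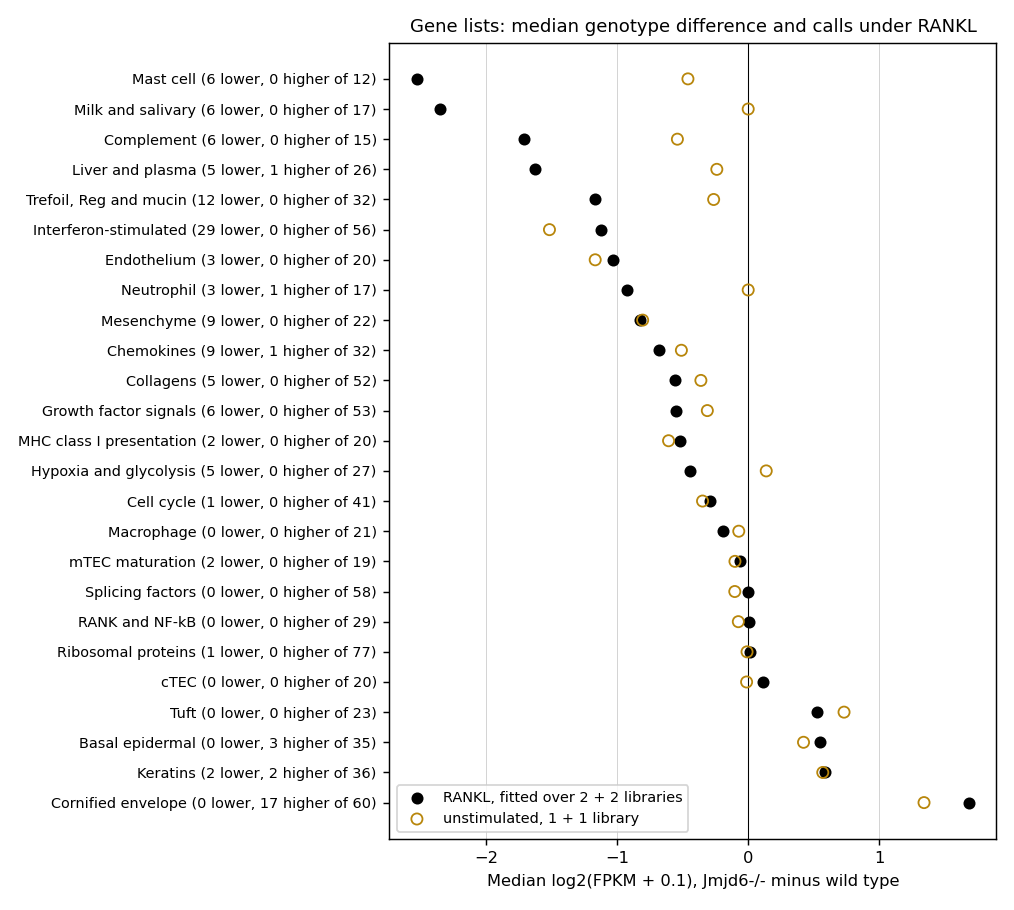
The median log2 difference, Jmjd6-/- minus WT, is plotted for 25 gene lists under RANKL (filled, 2 libraries of each genotype) and in the unstimulated pair (open), with the numbers called lower and higher under RANKL of those tested. Mast cell and interferon lists lie left of 0 and the cornified-envelope list right of it, and the filled and open points lie close together for mesenchyme and keratins.

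Other falling genes had little expression without RANKL. Of the called lower genes, 45.0% were under 1 FPKM in unstimulated WT stroma, against 23.9% of all genes tested. Secreted products of gut and stomach were among the lower genes. Of 32 trefoil, Reg and mucin genes 12 fell (37.5%, against 2.17% of all genes) and none rose (median -1.17). Reg3g, an antibacterial lectin of the intestine, was at 99.0 and 173 FPKM in WT and 28.2 and 29.1 FPKM in Jmjd6-/- (-2.19, SE 0.26, adjusted p = 0.0271, limma), and 5.89 against 3.02 FPKM in the unstimulated cultures. Its relative Reg3b was at 4.10 and 12.3 against 0.123 and 0.249 FPKM, where the WT replicates lay far apart and both exceeded Jmjd6-/-. Retn, which encodes resistin, was at 5.08 and 1.62 against 0 and 0.122 FPKM, and the intestinal transcription factor Cdx1 at 23.5 and 28.5 against 14.0 and 12.2 FPKM. The list had 8 calls without Jmjd6-/- replicate 1 and 7 without replicate 2. Prap1, Pgc (a stomach pepsinogen), Saa2 (an acute-phase apolipoprotein), Reg1, an entry that joins Mucl1 with Spt1 (salivary protein), Mgarp, Rln3 (a relaxin) and Crabp1 (a retinoic acid binding protein) were among the 15 largest decreases too, Pgc at 2.14 and 3.63 FPKM in WT and 0.0382 and 0.208 FPKM in Jmjd6-/-.

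Other tissue-type products fell to different extents. Of 17 milk and salivary genes 6 were called lower (35.3%, against 2.17% of all genes). Among them was the milk casein Csn2 at 102 and 99.3 FPKM in WT and 38.7 and 33.1 FPKM in Jmjd6-/- (-1.49, SE 0.12, adjusted p = 0.0215, limma). Csn2 therefore remained abundant in Jmjd6-/-, whereas the salivary gene Dcpp1, at 2.42 and 3.32 in WT, was at 0 and 0.218 FPKM. Bpifa1, an airway secretory protein on the same list, was at 833 and 1049 against 913 and 983 FPKM and was high without RANKL too, at 935 against 910.3 FPKM. Among 26 liver and plasma genes 5 fell (19.2%, against 2.17% of all genes), led by the apolipoproteins Apoc3, Apoa4 and Apoa1 (Apoa1 6.35 and 8.94 against 1.01 and 0.761 FPKM). The urea cycle enzyme Cps1 rose, from 2.25 and 2.61 to 6.62 and 6.65 FPKM. No skeletal muscle gene of 22 passed in limma (median -0.83, with 12 lower and 0 higher at an unadjusted p under 0.05, where 12.6% of all genes were lower), and 1 of 19 eye, nerve and endocrine genes did. A list of 12 antigens, written with earlier results of these libraries known and holding Ins2 and Spt1, which the study's text names, had 8 lower calls, which is not independent evidence of their direction. Of the genes written into these lists, 32 of 40 trefoil, Reg and mucin, 17 of 37 milk and salivary and 26 of 37 liver and plasma genes passed the filter at 0.1 FPKM. A gene could pass it through WT alone, so the medians over those tested are no measure of the whole lists. For genes this low in Jmjd6-/-, the log2 difference depends on the 0.1 FPKM added and gives no bound, since 3 fragments on 1 kb of transcript would come to between 0.106 and 0.185 FPKM at the depths estimated here.

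Protease genes known from mast cells were lower in Jmjd6-/- stroma. Mast cells store chymases and carboxypeptidase in granules, and intestinal mucosal mast cells are marked by Mcpt1 and Mcpt2. Mcpt1 was at 8.56 and 4.38 FPKM in WT and 0.037 and 0.201 FPKM in Jmjd6-/- (-4.94, SE 0.50, adjusted p = 0.0238, limma), and Mcpt2 at 6.36 and 2.35 against 0.0775 and 0.0526 FPKM. For both, WT replicate 1 was well above WT replicate 2, and both Jmjd6-/- libraries were near 0. Without RANKL, Mcpt1 was at 0.0316 FPKM and Mcpt2 at 0.0331 FPKM in WT, and both were listed at 0 in Jmjd6-/-. In all, 6 of the 12 mast cell genes that passed the filter, of 19 listed, were called lower, against 2.17% of all genes. The list median was -2.53, between -4.11 and -0.18 over the alternatives. The called genes Mcpt4, Cma1, Cpa3 and Tpsg1 were under 2 FPKM in every library. Some genes passed the filter through WT alone, such as Cma1 and Tpsg1, listed at 0 in both Jmjd6-/- libraries. The filter set the direction of such genes, so the median and count are no measure of the whole list. The receptor gene Kit was at 4.55 and 4.11 FPKM in WT and 4.86 and 3.81 FPKM in Jmjd6-/-. The IgE receptor gene Fcer1a at 0 and 0.123 against 0 and 0.0529 FPKM was too low to be tested. So were the mast cell genes Ms4a2 (0.0721 and 0.116 against 0 and 0.0172 FPKM) and Tpsab1 (0.0781 and 0 against 0 and 0 FPKM). Which cells carried the protease transcripts was not tested. Of 17 neutrophil genes Ngp, Mpo and Mmp9 fell (17.6%, against 2.17% of all genes). The iron-binding granule protein Ltf rose, from 0.568 and 0.906 to 4.76 and 3.89 FPKM. Ngp and Mpo were listed at 0 without RANKL in both genotypes. S100a8, the most abundant of them, was at 98.2 and 141 FPKM in WT and 58.5 and 65.5 FPKM in Jmjd6-/- and did not pass (adjusted p = 0.0747).

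**Figure D5:**
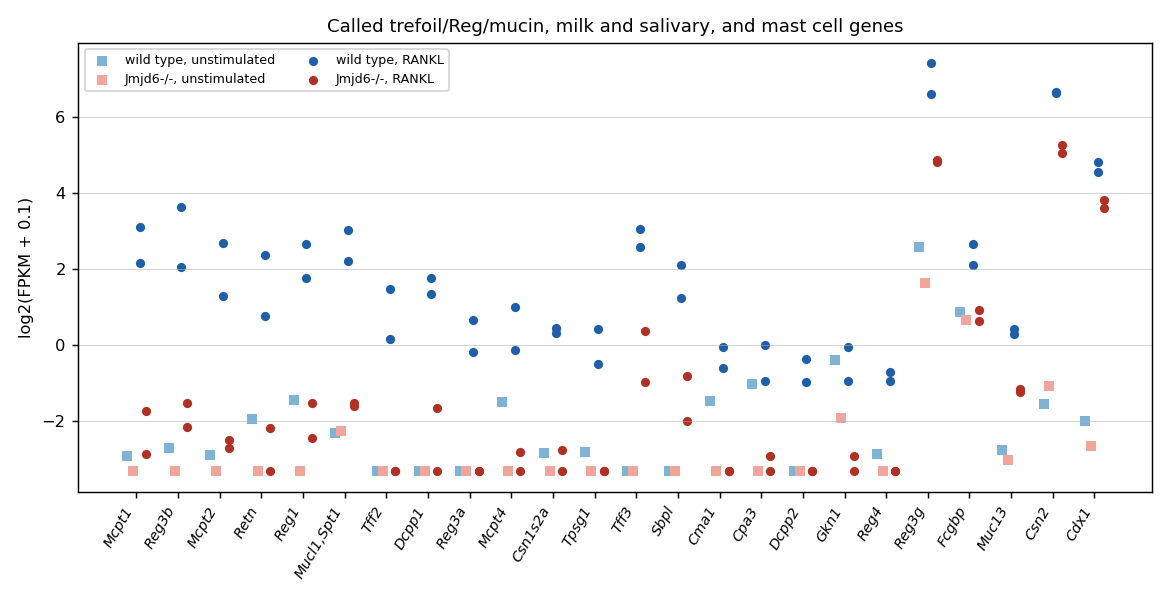
Each column is a called gene of the trefoil, Reg and mucin, milk and salivary, or mast cell lists and each point 1 library, as log2(FPKM + 0.1); squares are unstimulated and circles RANKL-stimulated cultures. WT circles lie above Jmjd6-/- circles throughout, and most squares of both genotypes lie low, near the value of a gene listed at 0.

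Some mesenchymal and endothelial genes fell, and the medians of both lists were negative with and without RANKL. Thymic mesenchyme lays down the capsule and septa and supplies growth factors to the epithelium. Of 22 mesenchymal genes 9 fell (40.9%, against 2.17% of all genes) and none rose (median -0.83, -0.81 in the unstimulated pair). Col3a1, a fibrillar collagen, was at 245 and 235 FPKM in WT and 125 and 115 FPKM in Jmjd6-/-, 2.00-fold lower (-1.0, SE 0.11, adjusted p = 0.0257, limma), with 266 against 127 FPKM in the unstimulated cultures. Small matrix proteins fell with it, Lum from 85.4 and 62.6 to 34.9 and 37.1 FPKM and Ogn from 3.20 and 3.22 to 0.764 and 0.676 FPKM. None of these groups overlapped, where 26.5% of all genes had both Jmjd6-/- values below both WT values. Without Jmjd6-/- replicate 1 the list had 1 call and without replicate 2 0, while its median stayed between -0.84 and -0.70. Summed levels of the list were 1102 and 1128 FPKM in WT and 695 and 664 FPKM in Jmjd6-/-, and how far a smaller mesenchymal share of the RNA enters the other differences was not tested.

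In 52 collagens and their crosslinking enzymes 5 fell (9.62%, against 2.17% of all genes) and none rose. In 53 growth factor and binding protein genes 6 fell (11.3%) and none rose. The latter included the insulin-like growth factor binding proteins Igfbp2, Igfbp4 and Igfbp6, the Wnt ligand Wnt10b, the Wnt antagonist Sfrp2 and the metabolic hormone Fgf21, at 92.4 and 93.5 FPKM in WT and 54.8 and 44.9 FPKM in Jmjd6-/-. Among 20 endothelial genes 3 fell (median -1.03, -1.17 unstimulated): the junction proteins Pecam1 (4.05 and 4.83 against 1.39 and 1.13 FPKM) and Cdh5 (3.78 and 4.2 against 1.34 and 1.16 FPKM), and the receptor Tie1. Endothelial genes summed to 34.4 and 49.6 FPKM in WT and 16.4 and 16.8 FPKM in Jmjd6-/-. Leaving out Jmjd6-/- replicate 1 or 2 left 0 or 0 collagen calls, 0 or 0 endothelial calls and 2 or 1 growth factor calls. Of 14 smooth muscle and pericyte genes none fell, and the actin-binding Tagln rose from 3.92 and 5.10 to 11 and 10.2 FPKM.

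Some genes of hypoxia and glycolysis fell under RANKL as well. Of 27 such genes 5 were called lower (18.5%, against 2.17% of all genes). Their list median was -0.44, and the unstimulated median was 0.14. Without Jmjd6-/- replicate 1 the list had 1 call and without replicate 2 0. Lactate dehydrogenase A (Ldha) was at 224 and 259.7 FPKM in WT and 116 and 121 FPKM in Jmjd6-/- (-1.03, SE 0.12, adjusted p = 0.0271, limma), and at 75.6 against 86.8 FPKM unstimulated. The angiogenic factor Vegfa was at 96.3 and 95.0 against 50.7 and 44.5 FPKM, and the mitophagy receptor Bnip3 at 91.9 and 88.3 against 50.2 and 47.0 FPKM. For Ldha, the test of whether the genotype difference changed with RANKL did not pass after adjustment (unadjusted p = 0.0015, adjusted p = 0.708, limma).

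General cell programmes held few calls. None of 58 splicing factors (median -0.0011), 81 oxidative phosphorylation genes, 24 cholesterol synthesis genes or 22 genes of the endoplasmic reticulum and integrated stress responses was called (limma). At an unadjusted p under 0.05 there were 1 lower and 1 higher splicing factors, 2 and 0 oxidative phosphorylation genes, 3 and 0 cholesterol synthesis genes and 5 and 0 stress genes, against 12.6% and 6.40% of all genes. Among 77 ribosomal proteins 1 low-level gene, Rpl39l, was called lower. Of 41 cell cycle genes Ccnd1, which encodes cyclin D1, fell, 7.85 and 6.43 FPKM in WT against 2.66 and 2.53 FPKM in Jmjd6-/-, and of 22 clock genes Per3 rose, from 8.92 and 9.31 to 17.3 and 15.7 FPKM. Among 26 JmjC and lysyl hydroxylase genes Jmjd6 alone was called. In Notch signalling, 2 of 23 genes fell, Hes6 from 248 and 207 to 99.8 and 109 FPKM and the fringe glycosyltransferase Mfng from 1.35 and 2.14 to 0.274 and 0.333 FPKM.

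The remaining lists held at most 2 calls in either direction. Among haematopoietic genes these were the granzyme Gzmb of 13 lymphoid genes (0.723 and 0.395 against 0 and 0.0373 FPKM), Ly6c2 of 8 dendritic cell genes (2.93 and 3.12 against 0.409 and 0.368 FPKM) and the matrix protease Mmp9 of 10 osteoclast genes (48.3 and 54.1 against 23.7 and 24.7 FPKM), all lower, and Ppbp of 8 platelet genes, higher (0.662 and 0.631 against 5.72 and 6.45 FPKM). Of 13 cilia genes Foxj1 fell (median -0.97), of 18 germ cell genes the protamine Prm1 fell, from 0.434 and 0.42 FPKM to 0 in both Jmjd6-/- libraries, and of 18 targets of NRF2 and of the aryl hydrocarbon receptor the glutathione transferase Gsta4 fell, from 121 and 133 to 72.9 and 74.4 FPKM. Of 25 p53 targets Perp rose, and of 43 histone genes Hist1h2ai and Hist1h2bf rose, both listed at 0 in both WT libraries and both near-identical to other copies. Of 26 tight junction genes Cldn1 rose and Cldn13 fell, from 6.47 and 4.85 to 1.01 and 0.581 FPKM. The 25 cytokines and alarmins, 18 immediate early genes, 9 erythroid genes, 2 keratin-associated genes and 6 sex-linked marker genes held no call in limma. At an unadjusted p under 0.05, 5 of these cytokines were lower and 4 higher, 0 and 4 immediate early genes, 3 and 2 erythroid genes, and 0 keratin-associated and 0 sex-linked genes in either direction, against 12.6% lower and 6.40% higher of all genes.

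The lists together held 126 of the 347 called lower and 33 of the 91 called higher genes. Of those outside them, the following were chosen after their values were seen. The acute-phase apolipoprotein Saa3 was at 17.9 and 23.2 FPKM in WT and 2.41 and 1.72 FPKM in Jmjd6-/-, and the surface protein Ly6a (Sca-1), which interferon induces in many cells, at 78.9 and 99.1 against 19.9 and 16.9 FPKM. The ileal bile acid binding protein Fabp6 was at 15.9 and 15.3 against 2.77 and 2.34 FPKM. In the other direction, the neuronal tubulin-binding protein Stmn2 was at 19.5 and 20.4 FPKM in WT and 67.5 and 64.3 FPKM in Jmjd6-/-, and the glutathione transferase Gsto1 at 25.9 and 34.0 against 94.3 and 99.997 FPKM. In each of these 5 the groups did not overlap. The called genes had shorter transcripts than the rest, with medians of 2003 bases for the lower and 2229 bases for the higher genes against 3179.5 over all, and a median GC content of 52.0% and 50.3% against 49.8%. By chromosome, the called higher genes were most frequent on chromosome 3, at 21 of 839 genes tested (2.50%, against 0.568% of all genes). Of these 21, 12 lie in the epidermal differentiation complex and were already counted there.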

How the data were processed

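Libraries from polyadenylated RNA of fetal thymic organ cultures, 6 in all, were sequenced on an Illumina platform. According to the study's methods and the submitters' processing notes, the authors mapped reads to mm10 with TopHat2 2.0.10 and computed FPKM per gene locus with Cufflinks 2.1.1, using correction for multiply mapped reads and a stranded library setting, although the kit named does not mark strand. The deposited values are therefore FPKM and not counts, and no count model was used. Reads shared by similar copies were divided by estimate, and 198 entries name several genes. FPKM totals ran from 501418 to 564985 per library. The study's methods give a read total over all libraries but no depth for each. Steps between low FPKM values put it at roughly 16200000 to 28200000 fragments in the RANKL libraries. All columns were used.

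Values were analysed as log2(FPKM + 0.1) in limma 3.58.1 (R 4.3.3) with a mean-variance trend, over entries with a mean of at least 0.1 FPKM in the 4 RANKL libraries, two-sided, with Benjamini-Hochberg adjustment and a threshold of 0.05. SE is the moderated standard error of the log2 difference, Jmjd6-/- minus WT. Tables were made with Python 3.11.15, pandas 2.3.3 and numpy 2.4.6. The fit was tested on simulated data before use. A further fit with all 6 libraries tested whether the genotype difference changed with RANKL and was added after the data were seen. The unstimulated libraries otherwise entered only an alternative fit over all 6 libraries. Replicate numbers were not taken to pair libraries, since the replicate differences of the 2 genotypes had a correlation of -0.04 across genes.

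The genes compared and the 55 gene lists were chosen with earlier results of these data known. Genes were named by rule: Jmjd6 and Mettl23, the 15 largest non-overlapping differences in each direction among called genes averaging 1 FPKM or more, and for each list up to 4 called members and the 2 most abundant ones. Others are further members of the lists, shown as markers or for their role, or are said to have been chosen after their values were seen. Alternatives changed the value added, the filter, the scaling, the variance trend, the libraries and the replicate block. Those that take out GC content and transcript length were chosen after seeing the data. Promoter windows of 300 bases came from RefSeq, of GRCm38.p6, matched by symbol. Some genes are not reported here. Loci are given as the deposited coordinates, counted from 1.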

Additional observations from a re-analysis of the deposited data

How the results depend on the processing

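The counts of 347 lower and 91 higher genes moved by less than 1.5 times with 1 or 0.01 FPKM added, without a filter, without the variance trend, with equal totals, with median-ratio scaling and with all 6 libraries in the fit. A filter at a mean of 1 FPKM gave 218 lower genes. Removing the dependence on GC content and transcript length library by library gave 657 lower and 335 higher genes, an alternative chosen after seeing the data. A replicate block gave 1143 lower and 403 higher genes, with all 347 and 91 main calls among them, and the replicate block with GC content and length taken out gave 934 and 422. The replicate numbers share only a number, and the replicate differences of the genotypes had a correlation of -0.04. Leaving out 1 library at a time gave 0 to 1490 lower and 0 to 1872 higher genes in limma, the lowest without WT replicate 2 (3071 and 2673 at an unadjusted p under 0.05) and the highest without WT replicate 1, where the lone library is assumed to vary like the other group. The cause of these shifts was not tested. Of 184 called genes, all called list members and some chosen after their values were seen among them, 0 turned direction in 2731 refitted values. In every called gene the groups did not overlap. Leaving out a library or changing the value added, the filter or the trend could therefore not turn a direction. The 0 is thus no measure of robustness. The list median kept its sign in every alternative for 38 of 55 lists. At the estimated depths, values under about 0.106 to 0.185 FPKM on 1 kb of transcript rest on 3 or fewer fragments, so folds of genes near 0 are not bounded.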
